A study of Mus musculus with 14 samples.

Results

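Serpins are a large family of proteins, most of which trap and disable a serine protease by serving as its bait and then locking it in an irreversible complex. In the mouse they are sorted into clades A to I. Clade A is largely secreted into plasma by the liver and includes alpha-1-antitrypsin and the antichymotrypsin-like Serpina3 genes, clade B acts mostly inside cells, and clades C to I hold the inhibitors of clotting, fibrinolysis and complement as well as non-inhibitory members such as a collagen chaperone. In the inflamed gut these proteins meet neutrophil, mast cell, granzyme, plasminogen and complement proteases.

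The genes described here are those whose symbol begins with Serpin. Each is represented by 1 probe, the probe with the highest mean signal among those that the scanner software called well above background on at least 3 of 14 arrays. Of 55 Serpin genes with a matched probe, 32 passed, among 15532 genes in all. The 32 comprised 10 of 19 genes of clade A, 11 of 25 of clade B, 1 of 1 each of clades C, D, G and H, 3 of 3 of clade E, 2 of 2 of clade F and 2 of 2 of clade I. Of the 32, 21 were well above background on all 14 arrays and 11 on fewer.

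The arrays measured RNA of whole colon from female C57BL/6 mice aged 4 to 6 months on a chow diet. All mice carried floxed alleles of the glucocorticoid receptor (GR, encoded by Nr3c1). Flox mice had no Cre and were the controls, and GR iKO mice also carried Villin-cre, which deletes GR in the intestinal epithelium and leaves it in the other cells of the colon wall. Each genotype received regular water (Flox, n = 4; GR iKO, n = 4) or 2.5% dextran sulfate sodium (DSS), a polymer that injures the colonic epithelium and causes colitis, in the drinking water for 7 days (Flox, n = 3; GR iKO, n = 3). The labels number the replicates without stating that each was a separate mouse, so the p-values measure the spread between these samples. Replicates on water are numbered 1 to 4, and those on DSS 1, 2 and 4 in Flox and 1, 3 and 4 in GR iKO. Levels are listed in that order.

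Every level is a log2 signal from which the 75th percentile of its own array was subtracted, so that 0 is as bright as that percentile, and levels of different probes are not comparable with each other. Changes are differences of group means on that log2 scale, given with the standard error (SE) of a limma model across all 29519 probes. A change was called at a Benjamini-Hochberg adjusted p under 0.05. In whole tissue, fewer cells of a type and less RNA per cell cannot be told apart.

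The median standard deviation of all probes was 0.18 in Flox and 0.17 in GR iKO arrays on water, against 0.26 and 0.34 on DSS, and the model therefore gave water and DSS arrays separate weights. Groups sat at fixed positions on the 4 slides, so position and group cannot be told apart. By its probe with the highest mean signal, Nr3c1 in GR iKO arrays stood at 57.3% of Flox on water (adjusted p = 0.00911). On DSS it stood at 56.1% (adjusted p = 0.0922), and the groups overlapped in neither case. All 8 epithelial markers were well above background on every array. All 8 markers of exocrine pancreas were also well above background on 10 of 14 arrays, and their mean level ranged from −4.06 to 9.60. The DSS arrays with the strongest pancreas signal, Flox replicate 4 and GR iKO replicate 3, were therefore left out together as an alternative chosen after the data had been seen.

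DSS raised most Serpin genes in both genotypes. In Flox 23 of the 32 were called, against 47.2% of all probes. Of these, 19 rose and 4 fell, where 21.8% of all probes rose and 25.4% fell. In GR iKO 19 were called, against 38.8% of all probes, and 18 rose and 1 fell, where 19% of all probes rose and 19.7% fell. The median change of the 32 was 1.95 in Flox and 1.18 in GR iKO, against −0.09 and −0.02 over all probes. The comparisons have different control arrays, and 18 genes were called in both of them, 17 higher and 1 lower. Another 5 genes were called in Flox alone (Serpina6, Serpinb1b, Serpinb5, Serpinb6d and Serpinc1) and Serpinb2 in GR iKO alone, but no Serpin gene passed the test of a difference between the genotypes in the response to DSS with these weights. Without Flox replicate 4 and GR iKO replicate 3 on DSS, 26 Serpin genes were called in Flox (19 higher) and 22 in GR iKO (21 higher), where 50.1% and 38.3% of all probes were called.

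**Figure D1:**
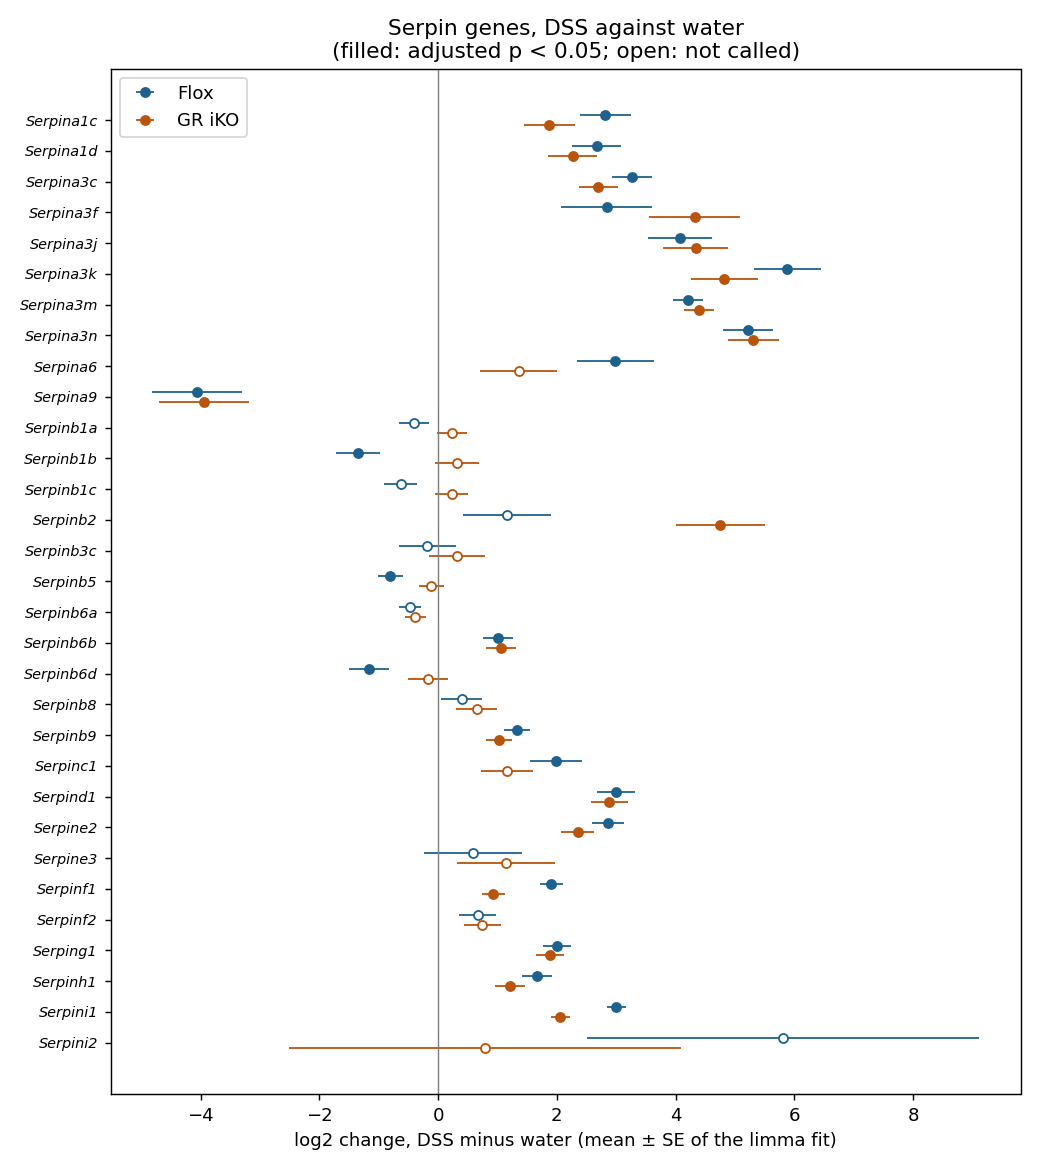
Log2 change with DSS (x axis, mean ± SE of the limma fit) for 31 of the 32 Serpin genes (y axis, in clade order) in Flox (blue) and GR iKO (orange), with filled points for adjusted p under 0.05. For Serpina3k, Serpina6, Serpinb2 and Serpine3, which were not well above background on the water arrays of 1 or both genotypes, the points are differences of spot values. The other clade A changes in Flox lie between −4.06 and 5.23, whereas the clade B points other than Serpinb2 lie between −1.35 and 1.33.

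Clade A held the largest called changes of the family. In Flox 9 of its 10 genes rose and 1 fell, and in GR iKO 8 rose and 1 fell. The median change was 3.12 in Flox and 3.51 in GR iKO, with the spot values of Serpina3k and Serpina6. Probes of the Serpina1 and Serpina3 genes may also bind RNA of near-identical copies, and values of single genes within these groups are uncertain for that reason.

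Serpina3n, an antichymotrypsin-like gene known as an acute-phase gene, had levels of −2.15, −1.48, −1.86 and −1.54 in Flox on water and of 3.98, 4.12 and 2.31 on DSS. In GR iKO the levels were −1.91, −1.12, −2.01 and −1.48 on water and 4.20, 3.40 and 3.45 on DSS. All DSS arrays lay above all water arrays, and Flox replicate 4 was the lowest DSS array. The change was 5.23 (SE 0.42, adjusted p = 4.64e-06) in Flox and 5.31 (SE 0.42, adjusted p = 5.85e-06) in GR iKO, which corresponds to 37.4-fold and 39.7-fold.

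Serpina3m levels were −2.44, −2.73, −2.46 and −2.64 in Flox on water and 1.59, 1.98 and 1.35 on DSS. Its GR iKO levels were −2.20, −2.27, −2.42 and −2.17 on water and 3.00, 1.65 and 1.74 on DSS. The groups on water and DSS did not overlap, and the change was 4.21 (SE 0.25, adjusted p = 1.24e-06) in Flox and 4.40 (SE 0.25, adjusted p = 8.74e-07) in GR iKO. Serpina3j and Serpina3c, neighbours of Serpina3n, moved in the same direction.

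Serpina3j levels were −5.41, −5.78, −4.79 and −4.39 in Flox on water against −0.72, −0.41 and −1.93 on DSS. In GR iKO they were −4.98, −5.15, −5.44 and −4.20 on water against −0.02, −1.002 and −0.79 on DSS. Every DSS array exceeded every water array, with changes of 4.07 (SE 0.54, adjusted p = 0.000101) and 4.34 (SE 0.54, adjusted p = 0.00011). Serpina3c rose from −3.87, −4.81, −4.53 and −4.66 to −1.53, −0.64 and −1.44 in Flox (change 3.26, SE 0.33, adjusted p = 1.7e-05). In GR iKO Serpina3c rose from −3.76, −3.74, −4.11 and −3.97 to −0.71, −1.14 and −1.73 (change 2.70, SE 0.33, adjusted p = 9.58e-05).

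These Serpina3 genes lie in a cluster on chromosome 12, and the bases before the start sites of 3 of them are shown because the genes rose together in both genotypes and GR is a transcription factor that binds DNA. The sequences are the 250 bases upstream of the RefSeq start site, read 5′ to 3′ along the gene (RefSeq, GRCm38.p6), and capitals mark AGAACA, the core hexamer of the GR binding element.
Serpina3c, chr12:104153873-104154122, minus strand: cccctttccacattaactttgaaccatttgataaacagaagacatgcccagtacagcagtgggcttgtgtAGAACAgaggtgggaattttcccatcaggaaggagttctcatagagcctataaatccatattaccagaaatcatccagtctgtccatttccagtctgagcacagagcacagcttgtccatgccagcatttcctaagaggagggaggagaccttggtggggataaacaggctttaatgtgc
Serpina3n, chr12:104406458-104406707, plus strand: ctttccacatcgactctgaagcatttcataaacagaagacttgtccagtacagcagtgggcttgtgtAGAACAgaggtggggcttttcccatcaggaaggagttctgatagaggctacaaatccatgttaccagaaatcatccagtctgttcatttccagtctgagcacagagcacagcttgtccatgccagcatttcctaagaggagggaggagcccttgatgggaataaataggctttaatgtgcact
Serpina3j, chr12:104314320-104314569, plus strand: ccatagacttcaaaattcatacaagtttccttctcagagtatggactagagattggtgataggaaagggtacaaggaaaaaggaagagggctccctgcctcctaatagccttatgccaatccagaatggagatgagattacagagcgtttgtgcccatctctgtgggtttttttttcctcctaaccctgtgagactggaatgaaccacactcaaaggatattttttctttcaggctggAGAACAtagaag

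The Serpina3c and Serpina3n stretches shared 45.2% of their 12-base words, whereas Serpina3j shared none with either. The hexamer stood at −180 in Serpina3c, at −183 in Serpina3n and at −12 in Serpina3j, counted from the start site. A promoter was at hand for 25 of the 32 genes, 6 of them of clade A. All 6 (Serpina1c, Serpina1d, Serpina3c, Serpina3f, Serpina3j and Serpina3n) held AGAACA on either strand within the 250 bases, none of the other 19 did (Serpina3f has more than 1 listed start site, and the match is before the downstream one), and 16.1% of all 32851 promoters did. The fuller element, in which AGAACA is followed after 3 bases of any kind by TGTTC, was in none of the 25 and in 0.0304% of all. Among motifs of inflammatory factors, TTCNNNGAA (STAT) was in Serpina3f, Serpinb2 and Serpinb6a (7.02% of all), TTGCNNAA (C/EBP) in Serpina1d, Serpina3f and Serpinb2 (9.56%), an NF-kB motif in Serpina3n (1.41%), and TGANTCA (AP-1) in Serpina1c, Serpina1d, Serpinb2, Serpinb5 and Serpinb8 (6.75%). A gene counts if any of its listed start sites matched, whereas the percentages are shares of single promoters. The motifs were chosen after the changes were known, related genes share ancestral sequence, and a match is a description of the letters alone.

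Serpina3k, a kallikrein-binding member, was below the scanner's detection call (well above background) on all 8 water arrays. Its DSS levels were −1.71, −2.07 and −1.20 in Flox and −1.71, −4.80 and −1.63 in GR iKO, where replicate 3 stood apart. Against the lowest signal called well above background on each array, the Flox DSS mean was at least 19.4-fold higher (adjusted p = 1.19e-05) and the GR iKO DSS mean at least 8.81-fold higher (adjusted p = 6.99e-05). Other bounds in the text were obtained the same way. The adjusted p beside a bound tests the difference of the measured spot values.

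Serpina3f levels were −4.43, −5.33, −5.09 and −5.02 in Flox on water and −1.40, −2.58 and −2.42 on DSS. In GR iKO they were −4.22, −3.15, −5.82 and −3.84 on water and 0.96, −1.03 and 0.25 on DSS. Water and DSS arrays did not overlap in either genotype, and the change was 2.84 (SE 0.77, adjusted p = 0.00932) in Flox and 4.32 (SE 0.77, adjusted p = 0.00103) in GR iKO. The Flox call was lost without Flox replicate 1 on DSS (adjusted p = 0.0823). A second Serpina3f probe gave 2.63 and 3.81, both called.

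Serpina1c and Serpina1d belong to the alpha-1-antitrypsin genes of the mouse. Serpina1d levels were −1.53, −0.93, −0.98 and −0.63 in Flox on water, 1.36, 1.02 and 2.58 on DSS, −1.28, −1.29, −1.60 and −1.79 in GR iKO on water and 1.22, −0.21 and 1.33 on DSS. All DSS arrays exceeded all water arrays, and GR iKO replicate 3 was the lowest of them. The change was 2.67 (SE 0.41, adjusted p = 0.000277) in Flox and 2.27 (SE 0.41, adjusted p = 0.00121) in GR iKO.

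Serpina1c levels were −5.77, −4.96, −5.29 and −5.15 in Flox on water and −2.54, −3.17 and −1.71 on DSS, a change of 2.82 (SE 0.43, adjusted p = 0.000243). In GR iKO they were −5.44, −5.25, −6.22 and −5.73 on water and −3.78, −4.55 and −3.03 on DSS, a change of 1.87 (SE 0.43, adjusted p = 0.00466). The DSS arrays were again above the water arrays in each genotype.

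Serpina6 encodes corticosteroid-binding globulin, the plasma carrier of glucocorticoids. It was well above background on none of the 8 water arrays and on 2 of 3 Flox and 1 of 3 GR iKO DSS arrays. Its DSS levels were −5.10, −5.82 and −3.66 in Flox. The mean spot value was −4.86 there and −7.84 in Flox on water (adjusted p = 0.00259). No lower bound of the fold is given, because not all of these DSS spots were well above background. In GR iKO the DSS levels were −5.94, −7.88 and −5.18, within reach of the water arrays, which spanned −8.11 to −6.75, and no call was made (adjusted p = 0.118).

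Serpina9, which is expressed in germinal centre B cells, was the exception in clade A. Its levels were −0.75, −2.03, −0.87 and −0.66 in Flox on water and −5.29, −6.53 and −3.59 on DSS. In GR iKO they were −2.19, −0.91, −1.04 and −0.88 on water and −6.68, −3.70 and −5.19 on DSS. Every DSS array lay below every water array, and the gene fell by 4.06 in Flox (SE 0.76, adjusted p = 0.000979) and by 3.93 in GR iKO (SE 0.76, adjusted p = 0.00171). Of 7 B cell markers, a list added after the data had been seen, 6 fell in Flox and none was called in GR iKO. Their summed level spanned 2.66 to 3.46 in Flox on water, −1.03 to 2.53 in Flox on DSS, 2.30 to 2.97 in GR iKO on water and −0.57 to 3.56 in GR iKO on DSS. In GR iKO on DSS it was 3.45 and 3.56 in replicates 1 and 3, where Serpina9 was nevertheless at −6.68 and −3.70.

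**Figure D2:**
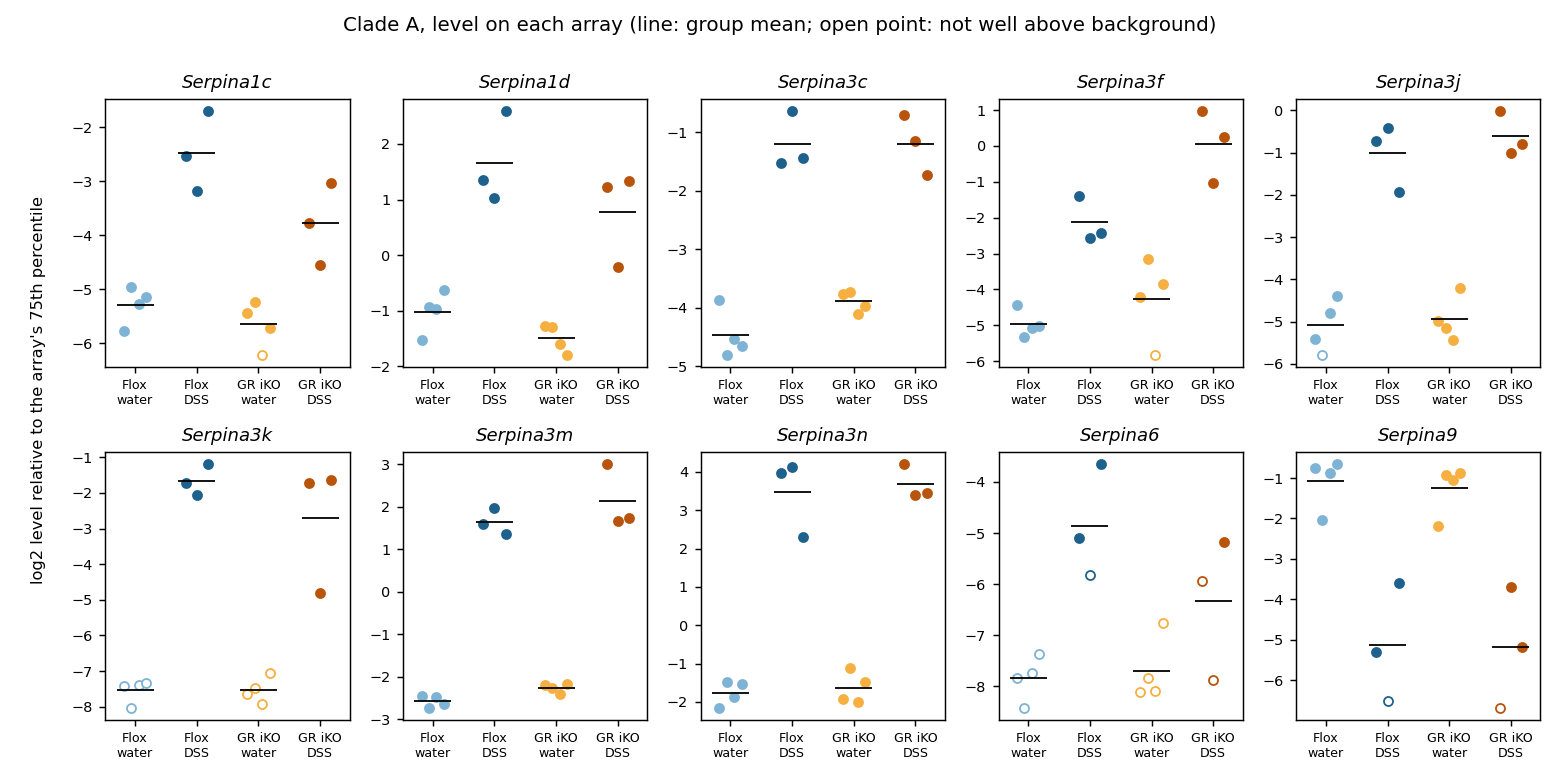
Log2 level (y axis, relative to the array's 75th percentile) of each of the 10 clade A genes on every array, by group, with the group mean as a line and open points for spots not well above background. Serpina3n, Serpina3m, Serpina3j and Serpina3c separate water from DSS in both genotypes, GR iKO replicate 3 on DSS stands at −4.80 for Serpina3k, and Serpina9 falls.

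Genes that mark hepatocytes moved with DSS beside the clade A, C and D genes. In Flox 5 of 6 rose (Alb, Apoa2, Apoh, Ahsg and Tat) and Ttr fell, and in GR iKO Ahsg and Tat rose and Ttr fell. The summed level of the 6 spanned 0.72 to 1.48 in Flox and 1.15 to 1.26 in GR iKO on water, and 2.95 to 4.12 in Flox and 3.41 to 3.76 in GR iKO on DSS. The sum in GR iKO replicate 3 on DSS was 3.76, with Tat alone at 3.73. The mean level of the 6 was −3.58 on that array, against −1.20 and −0.87 in GR iKO replicates 1 and 4 on DSS. On GR iKO water arrays this mean spanned −2.84 to −2.61. Albumin stood at 1.99, 1.66 and 3.10 on the Flox DSS arrays and at 1.20, −6.47 and 1.82 on the GR iKO DSS arrays, and was not well above background in GR iKO replicate 3, which was also the lowest DSS array for Serpina3k, Serpina1c, Serpina1d, Serpina6, Serpinc1 and Serpind1. Ttr was not well above background on any DSS array. The part of these transcripts in the Serpin changes was not tested. Serpina3n, Serpina3m, Serpina3j and Serpina3c in GR iKO replicate 3 stood at 3.40, 1.65, −1.002 and −1.14, above all water arrays. Serpina1c, Serpina1d, Serpina3k and Serpind1, at −4.55, −0.21, −4.80 and −3.37 on that array, were also above all their water arrays. Serpina6 (−7.88) and Serpinc1 (−3.56) lay within the range of theirs.

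Serpinc1 and Serpind1 encode antithrombin and heparin cofactor II, plasma inhibitors of thrombin. Serpind1 levels were −5.30, −4.83, −5.13 and −4.75 in Flox on water and −1.96, −2.23 and −1.82 on DSS, and in GR iKO −5.28, −5.69, −5.32 and −6.01 on water and −2.13, −3.37 and −2.57 on DSS. The groups did not overlap, with changes of 3.00 (SE 0.32, adjusted p = 2.13e-05) and 2.89 (SE 0.32, adjusted p = 4.57e-05). Serpinc1, chosen after its values were seen, changed by 1.98 in Flox (SE 0.44, adjusted p = 0.00292) and was not called in GR iKO (1.16, SE 0.44, adjusted p = 0.0545). Its second probe changed by 0.42 in Flox and was not called (adjusted p = 0.304). Among 11 complement and clotting proteases 7 rose in each genotype. F10, which encodes clotting factor X, rose by 4.57 in Flox and 7.50 in GR iKO, and F2, which encodes prothrombin, by 3.81 and 2.06.

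In clade E, Serpine2 (protease nexin-1) inhibits thrombin and plasminogen activators at the cell surface. Its levels were −2.89, −2.59, −3.22 and −3.14 in Flox on water and 0.24, 0.09 and −0.64 on DSS. In GR iKO they were −2.59, −3.02, −2.93 and −3.23 on water and −0.74, −0.43 and −0.61 on DSS. The groups were well apart, with changes of 2.86 (SE 0.27, adjusted p = 1.18e-05) and 2.35 (SE 0.27, adjusted p = 6.83e-05). Serpine3 was not called in either genotype and was well above background on only 5 arrays.

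Genes of the plasminogen system, whose activators Serpine2 and Serpinb2 inhibit, changed as well. Of 4 plasminogen activation genes, 3 rose in Flox and 4 in GR iKO. Plaur, the urokinase receptor, rose by 2.43 and 4.07, Plat by 1.44 and 2.36 and Plg by 4.65 and 2.00, while Plau changed by 0.46 in Flox (adjusted p = 0.12) and rose by 1.95 in GR iKO. Plg is itself a plasma gene of the liver. The genotype difference on DSS was called for none of the 4 with separate weights, and for 3 of 4 (2 higher and 1 lower in GR iKO) with 1 shared spread for water and DSS arrays.

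Serpinb2 (PAI-2), a clade B inhibitor of urokinase made by activated macrophages and stressed epithelium, was well above background on the 3 GR iKO DSS arrays and on none of the other 11, so that it entered the set through the group in which it is high. Its GR iKO DSS levels were −2.24, −4.33 and −1.99, at least 7.99-fold higher than GR iKO on water (adjusted p = 0.000452). In Flox on DSS the spot read −6.25, −5.78 and −7.05, none well above background, and no call was made (adjusted p = 0.22). Its second probe was likewise well above background on the 3 GR iKO DSS arrays alone. Neutrophil markers had summed levels of 4.57 to 6.06 in Flox and 6.38 to 8.16 in GR iKO on DSS, and macrophage markers of 4.70 to 5.62 and 5.26 to 6.40, and their part in the Serpinb2 signal was not tested.

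**Figure D3:**
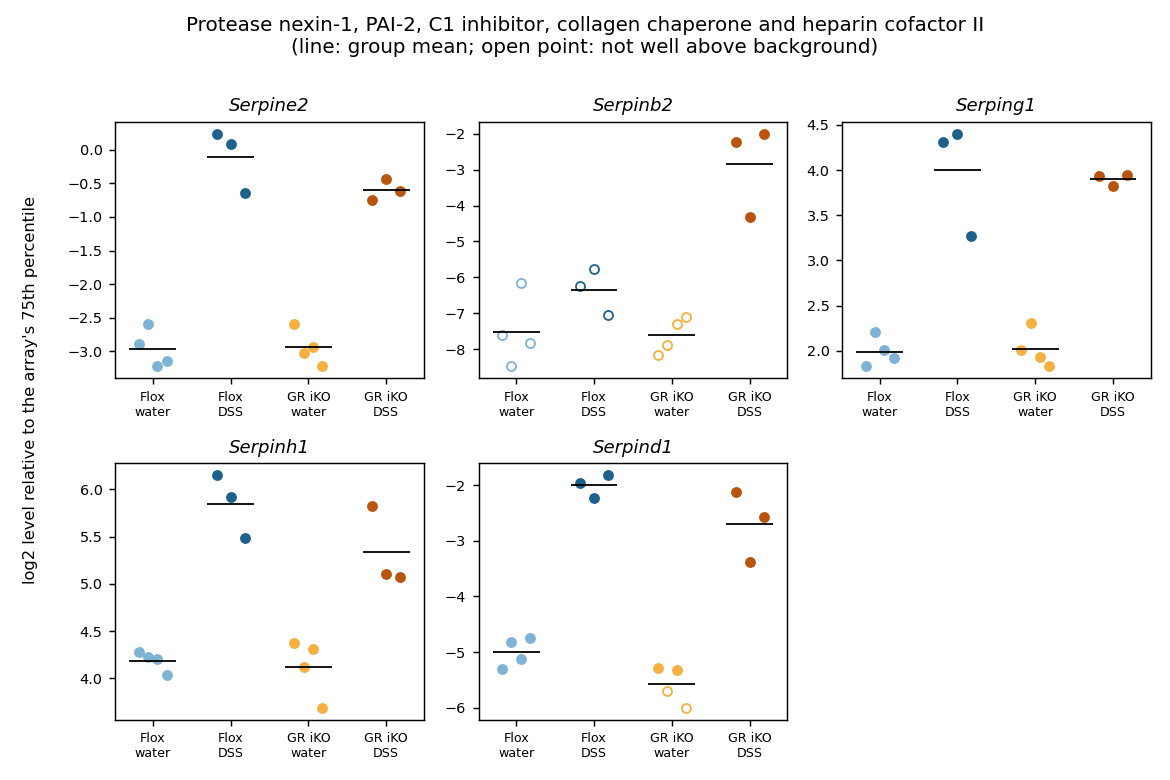
Log2 level (y axis, relative to the array's 75th percentile) of Serpine2, Serpinb2, Serping1, Serpinh1 and Serpind1 on every array by group, with lines for group means and open points for spots not well above background. DSS arrays lie above water arrays in each panel except for Serpinb2 in Flox, where no spot was well above background.

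Of the 11 clade B genes, Serpinb2 included, 5 were called in Flox, where 2 rose and 3 fell, and 3 in GR iKO, where all 3 rose. The share called over all probes was 47.2% in Flox and 38.8% in GR iKO. Serpinb9, which inhibits granzyme B and protects cells from their own cytotoxic granules, rose by 1.33 (SE 0.21, adjusted p = 0.000375) and 1.03 (SE 0.21, adjusted p = 0.00281), and Serpinb6b by 1.01 (SE 0.26, adjusted p = 0.00663) and 1.06 (SE 0.26, adjusted p = 0.00646). Of 3 granzymes none was called in Flox, and Gzmb rose by 2.67 in GR iKO. Probes of the Serpinb1, Serpinb6 and Serpinb9 groups may bind RNA of more than 1 copy.

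Serpinb1a, an inhibitor of neutrophil elastase and cathepsin G, was not called in either genotype. Its levels were 6.05, 5.70, 6.24 and 5.97 in Flox on water, 5.58, 4.99 and 6.18 on DSS, 5.96, 6.17, 6.18 and 6.22 in GR iKO on water and 6.18, 6.78 and 6.16 on DSS. The groups overlapped, with changes of −0.41 (SE 0.25, adjusted p = 0.196) and 0.24 (SE 0.25, adjusted p = 0.48). None of 3 neutrophil serine proteases was called, although 7 of 8 neutrophil markers rose in Flox and 8 of 8 in GR iKO.

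Its relative Serpinb1b fell in Flox, from 0.70, 0.49, 1.20 and 0.96 on water to −0.83, −1.27 and 0.55 on DSS (change −1.35, SE 0.37, adjusted p = 0.00994). Replicate 4 on DSS lay within the water range. In GR iKO its levels were 0.56, 0.44, 0.50 and 1.05 on water and 0.65, 1.41 and 0.79 on DSS, which was not called (change 0.31, adjusted p = 0.537). Serpinb5 (maspin), an epithelial serpin that does not inhibit proteases, fell by 0.81 in Flox (SE 0.21, adjusted p = 0.0082), from 3.77, 3.89, 4.20 and 3.87 on water to 3.14, 2.62 and 3.62 on DSS. In GR iKO Serpinb5 stood at 3.99, 4.11, 4.17 and 4.22 on water and 4.27, 3.67 and 4.08 on DSS, which was not called (adjusted p = 0.703).

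Serpinb6d fell by 1.17 in Flox (SE 0.34, adjusted p = 0.0129). The Flox calls of Serpinb1b, Serpinb6b and Serpinb6d were lost without Flox replicate 1 or 2 on DSS, and that of Serpinb5 without replicate 2. The Serpinb6d call was also lost with normexp background correction, and its highest adjusted p over all alternatives was 0.119. Of 8 epithelial markers, 1 rose and 2 fell in Flox on DSS, and their mean level spanned 5.26 to 6.19 there, against 6.02 to 6.25 on water and 5.48 to 6.26 in GR iKO on DSS. The lowest of the Flox DSS arrays in epithelial markers, replicate 2, was also the lowest for Serpinb1a, Serpinb1b, Serpinb1c and Serpinb5, and the highest, replicate 4, was the highest for these 4, and the part of epithelial content was not tested. Among 8 epithelial serine proteases 1 rose and 6 fell in Flox and 2 rose and 3 fell in GR iKO. Hpn, which encodes hepsin, fell by 2.13 and 3.20.

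Serping1 (C1 inhibitor) is a plasma inhibitor of the complement proteases C1r and C1s. Its levels were 1.82, 2.20, 2.01 and 1.92 in Flox on water and 4.31, 4.41 and 3.27 on DSS, and in GR iKO 2.01, 2.31, 1.93 and 1.83 on water and 3.94, 3.83 and 3.94 on DSS. All DSS arrays exceeded all water arrays, and the change was 2.01 (SE 0.24, adjusted p = 4.63e-05) in Flox and 1.88 (SE 0.24, adjusted p = 0.000121) in GR iKO. The C1 proteases rose with it, C1ra by 2.39 and 2.45 and C1rb by 2.74 and 2.81.

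Serpinh1 (HSP47), a chaperone of procollagen in the endoplasmic reticulum, had levels of 4.28, 4.23, 4.21 and 4.04 in Flox on water and 6.15, 5.92 and 5.48 on DSS. In GR iKO it stood at 4.38, 4.13, 4.31 and 3.69 on water and 5.83, 5.10 and 5.07 on DSS. It rose without overlap by 1.66 (SE 0.25, adjusted p = 0.000249) and 1.21 (SE 0.25, adjusted p = 0.00279). All 7 collagen genes of its client list rose in both genotypes, with medians of 1.43 and 1.00, and all 7 fibroblast markers, 3 of which are collagens of the same list, rose as well, with summed levels of 6.70 to 6.97 on water and 8.02 to 8.61 on DSS in Flox and 6.59 to 7.12 and 7.90 to 8.20 in GR iKO.

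Serpinf1 (PEDF), a secreted non-inhibitory serpin that restrains blood vessel growth, rose from 0.21, 0.17, 0.22 and −0.17 to 2.10, 2.12 and 1.84 in Flox (change 1.91, SE 0.19, adjusted p = 1.32e-05). In GR iKO it rose from 0.19, 0.38, 0.20 and 0.02 to 1.18, 1.42 and 0.80 (change 0.93, SE 0.19, adjusted p = 0.00216). Serpinf2 (alpha-2-antiplasmin) changed by 0.67 in Flox (adjusted p = 0.0944) and by 0.74 in GR iKO (adjusted p = 0.0771), neither called.

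Serpini1 (neuroserpin), an inhibitor of tissue plasminogen activator made by neurons, had the smallest SE of the family. Its levels were −1.18, −1.11, −1.35 and −1.31 in Flox on water and 2.01, 1.91 and 1.36 on DSS, and in GR iKO −1.12, −1.29, −1.45 and −1.32 on water and 0.70, 0.70 and 0.90 on DSS. Both changes were called, at 3.00 (SE 0.16, adjusted p = 9.23e-07) and 2.06 (SE 0.16, adjusted p = 5.6e-06). All 5 tested markers of enteric neurons and glia rose in both genotypes, with medians of 2.42 and 1.45. Their summed level spanned 0.66 to 1.03 on water and 2.97 to 3.72 on DSS in Flox, and 0.68 to 1.17 and 2.43 to 2.84 in GR iKO, and the part of neural content in the Serpini1 change was not tested.

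Serpini2 (pancpin), a serpin of the exocrine pancreas, is described although the rule for named genes did not select it. Its levels were −2.75, −3.09, −7.79 and 0.24 in Flox on water, 1.30, −0.15 and 6.25 on DSS, −0.01, −7.93, −0.42 and −3.52 in GR iKO on water and −0.996, 2.34 and −7.87 on DSS. Each group spread over 6 log2 units or more, and neither change was called (5.81, SE 3.30, adjusted p = 0.167, and 0.79, SE 3.30, adjusted p = 0.871). The mean level of the 8 pancreas markers was highest in Flox DSS replicate 4 (9.60) and next in GR iKO DSS replicate 3 (6.58), the 2 arrays with the highest Serpini2. It was −4.06 in Flox water replicate 3, −3.79 in GR iKO water replicate 2 and −3.58 in GR iKO DSS replicate 4, the arrays on which Serpini2 was not well above background. GR iKO DSS replicate 1 departed from this order, with markers at −3.36 and Serpini2 at −0.996.

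**Figure D4:**
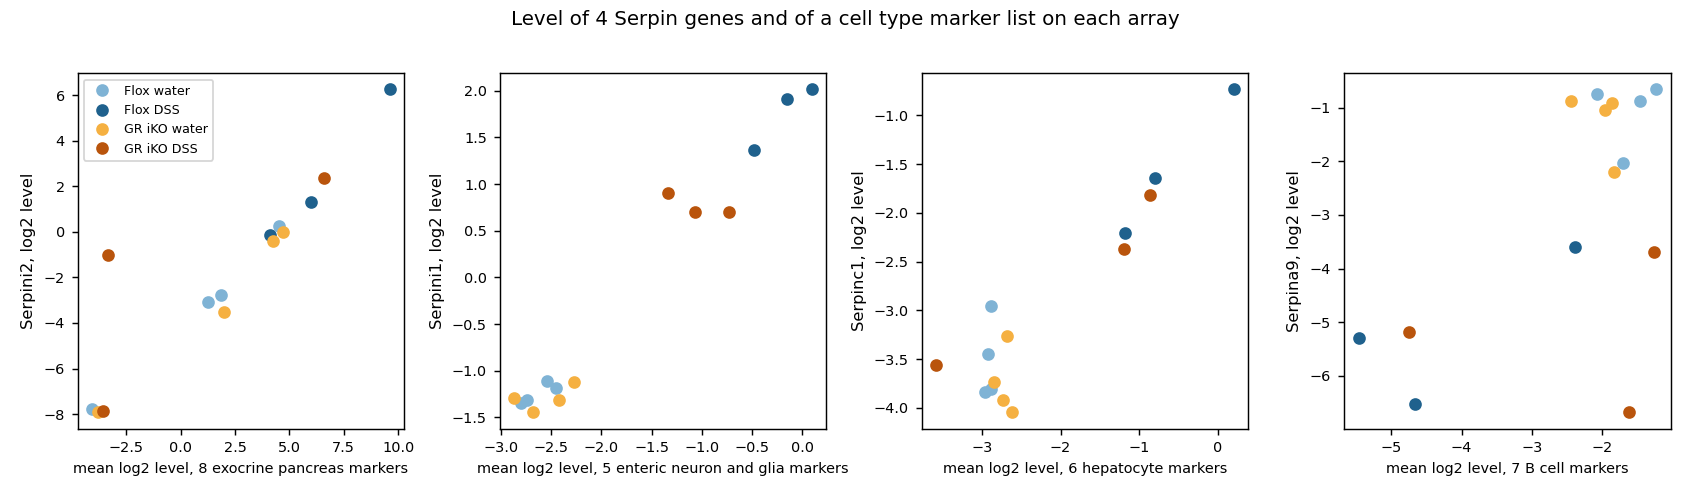
Log2 level of Serpini2, Serpini1, Serpinc1 and Serpina9 (y axes) against the mean log2 level of a marker list (x axes: 8 exocrine pancreas, 5 enteric neuron and glia, 6 hepatocyte and 7 B cell genes), 1 point per array coloured by group. Serpini2 climbs with the pancreas markers except for GR iKO DSS replicate 1, GR iKO DSS arrays lie below Flox DSS arrays for Serpini1, and Serpina9 is low on DSS arrays whether B cell markers are low or high.

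Between the genotypes on water no Serpin gene was called, and 0.0237% of all probes were (7 probes). Of the 32, 2 had an unadjusted p under 0.05, against 3.34% of all probes, and differences ranged from −0.57 (Serpind1, SE 0.19) to 0.71 (Serpina3f, SE 0.46), with 29 of 32 within 0.5 of 0. Serpina3m was the 1 gene of the 32 whose groups did not overlap, against 2.26% of all probes, and it did not pass (0.30 higher in GR iKO, SE 0.15, adjusted p = 1.00).

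On DSS no Serpin gene was called between genotypes either, and 0.0203% of all probes were (6 probes). An unadjusted p under 0.05 was found for 9 of 32, against 17.6% of all probes. The groups did not overlap for 7 of 32, 5 higher in GR iKO and 2 lower, against 22.8% of all probes. With 1 shared spread for water and DSS arrays, which gives DSS arrays the same weight as water arrays, 13.2% of all probes and 6 Serpin genes were called. Of these 6, Serpinb2, Serpina3f, Serpinb1b and Serpinb5 were higher in GR iKO and Serpini1 and Serpinf1 lower.

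Serpinb2, which passed the filter through GR iKO on DSS alone, was at least 5.57-fold higher there (adjusted p = 0.104). Serpina3f was 2.19 higher (SE 0.98, adjusted p = 0.271), Serpinb1b 1.47 higher (SE 0.47, adjusted p = 0.149) and Serpinb5 0.88 higher (SE 0.27, adjusted p = 0.137). Serpini1 was lower by a difference of −0.995 (SE 0.21, adjusted p = 0.0766) and Serpinf1 by −0.89 (SE 0.24, adjusted p = 0.103). The 5 neuron and glia markers were also lower in GR iKO on DSS, by a median of −0.87, the 7 fibroblast markers by −0.30 and the 6 smooth muscle markers by −1.34, while 6 of 8 epithelial markers were higher, with a median over the 8 of 0.52. None of these markers was called with separate weights, whereas 1 shared spread called 4 of 5 neuron and glia, 1 of 7 fibroblast and 6 of 6 smooth muscle markers lower and 1 of 8 epithelial markers higher, and their part in these differences was not tested.

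Slide 1 and slide 4 were the 2 slides that held DSS arrays of both genotypes. Because the DSS groups of these genes did not overlap, within-slide differences had to keep their sign and are given for size alone. Serpinb2, not well above background in Flox, is left out. They ranged over 0.36 to 2.67 for Serpina3f, 0.24 to 2.24 for Serpinb1b, 0.46 to 0.54 for Serpinb5, −1.31 to −0.46 for Serpini1 and −1.04 to −0.69 for Serpinf1. Without Flox replicate 4 on DSS, 3 genes passed (Serpinb1b, Serpinb5 and Serpini1) and 2.74% of all probes, and without GR iKO replicate 3, Serpinb2 passed and 2.43% of all probes. The other members' differences on DSS were not called under either spread.

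**Figure D5:**
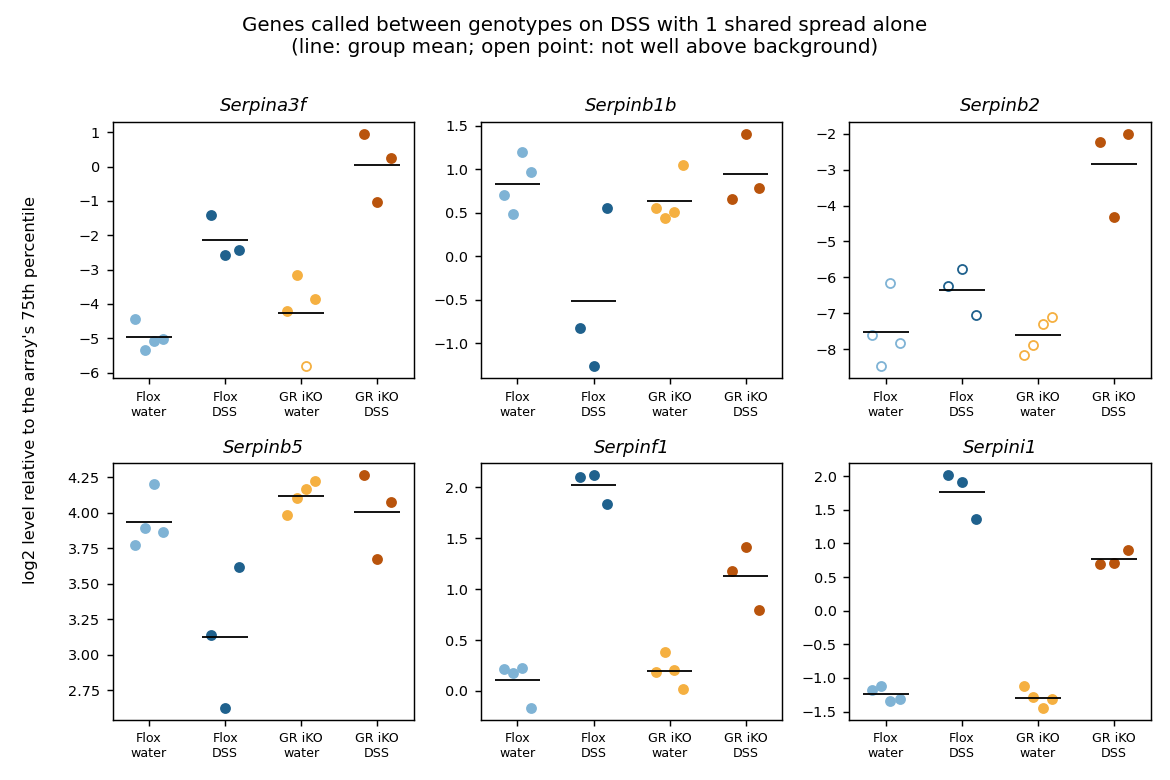
Log2 level (y axis, relative to the array's 75th percentile) of the 6 genes called between genotypes on DSS with 1 shared spread, on every array by group, with lines for group means and open points for spots not well above background. The Flox DSS and GR iKO DSS points do not overlap in any panel, and the distance between them is small for Serpinb5 and Serpinb1b because of Flox replicate 4.

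The test of a genotype difference in the DSS response called no Serpin gene and 0% of all probes, with 5 of 32 Serpin genes and 14.8% of all probes at an unadjusted p under 0.05. With 1 shared spread it called none of the 32 either, where 0.112% of all probes were called. Without Flox replicate 4 and GR iKO replicate 3 on DSS it called 5 of the 32 (3 larger and 2 smaller in GR iKO) and 6.32% of all probes, and the genotype comparison on DSS called 5 and 11.6%. The lowest adjusted p among the 32 was 0.15, for Serpini1, whose response was smaller in GR iKO by a difference of −0.94 (SE 0.23).

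The 23 Serpin genes that were not tested belonged to clade A (9 genes) and clade B (14 genes). Of these, 18 were well above background on no array, 3 on 1 array and 2 on 2 arrays. Serpinb10 was well above background on 2 of 3 GR iKO DSS arrays and on no other, and Serpinb12 on 1 array of each genotype on DSS. Serpina10, an inhibitor of clotting factor Xa, was well above background on 1 Flox DSS array.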

How the data were processed

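Total RNA of whole colon was labelled with Cy3 and hybridised to 1-colour mouse arrays. The deposited scanner files hold spot intensities that Agilent Feature Extraction 12.0.0.7 had background-corrected, per the file headers, on an array design annotated to mm9. A deposited table of log2 values, which the authors made with Partek 6.6 per their processing notes, served as an alternative.

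For each array, log2 processed intensity minus its 75th percentile was computed, and this percentile ranged from an intensity of 262 to 1003. It was 707 to 1003 on water arrays, 262 to 675 on Flox DSS arrays and 493 to 713 on GR iKO DSS arrays. The lowest was Flox replicate 4 on DSS. Precision is limited by the number of arrays. Control spots (1639 of 45018) were left out. Of 41174 probes, 29519 that were well above background on at least 3 arrays were tested with limma 3.58.1 (R 4.3.3) over all 14 arrays, with weights of 1.70 for water and 0.494 for DSS arrays, and adjusted by Benjamini-Hochberg within each of 5 comparisons. All adjusted p-values in the text are from this model, two-sided. Of 29245 probes with a RefSeq accession, 28215 matched a symbol. The model was tested on simulated data.

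The members, gene lists and motifs were chosen with earlier results of these data known. Values on every array are given for genes called with a log2 change of at least 2 with DSS, genes called between genotypes with either spread, and 6 genes named by symbol, 1 gene of the family is counted but not reported here by name, and others were named after their values were seen. Alternatives covered the spread, normalization, filter, probe choice, background, slide and replicate blocks and leaving out each array. The normexp alternative used the median in place of the mean spot signal. Of the remaining lists, DSS called 2 of 6 endothelial (both higher), 5 of 6 smooth muscle (all higher), 3 of 4 squamous (1 higher), 0 of 6 cytotoxic lymphocyte, 1 of 3 mast cell and 1 of 4 mesothelial markers, 2 of 5 mast cell proteases (1 higher) and 3 of 6 lysosomal cysteine proteases (2 higher) in Flox. In GR iKO it called 1, 0, 2, 1, 0, 0, 0 and 3 of these.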

Additional observations from a re-analysis of the deposited data

Results flagged for a closer look

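Among 64 sets of 4 water arrays of a Serpin gene, 6 held an array that stood farther from the others than Dixon's criterion allows, where chance gives about 1 in 20. Serpina9 was low in Flox replicate 2 (−2.03, others −0.87 to −0.66) and in GR iKO replicate 1 (−2.19, others −1.04 to −0.88). Serpina3k read −8.03 in Flox replicate 2 (others −7.41 to −7.34), but none of these spots was well above background. In GR iKO, Serpinb6d was high in replicate 4 (−1.01, others −1.80 to −1.72) and Serpinb8 in replicate 2 (−4.54, others −5.53 to −5.39). Serpinf1 was low in Flox replicate 4 (−0.17, others 0.17 to 0.22).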

How the results depend on the processing

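The number of Serpin genes called with DSS was within 1.5 times the reported count under all 27 alternatives, at 18 to 28 in Flox and 19 to 22 in GR iKO, and no named result reversed. The share of all probes called ranged from 31% to 65.1% in Flox and from 27.3% to 44.5% in GR iKO. Alternatives with another filter tested another number of Serpin genes, up to 55 without a filter. Between genotypes on water the number of Serpin genes called was 0 throughout. On DSS it was 0 with separate weights, 6 with 1 shared spread, 6 with a quality weight for each array, 1 with a trended robust fit, 0 to 3 when leaving out 1 array and 5 without both Flox replicate 4 and GR iKO replicate 3. The interaction gave 5 with array quality weights, 5 without those 2 arrays and 0 to 0 when leaving out 1 array. Over all probes the genotype comparison on DSS called 6, 3903 with 1 shared spread, 3493 with array quality weights and 159 with the trended fit. The cause was not tested. Nr3c1 on water differed by −1.07 (adjusted p = 0.143) and −0.84 (adjusted p = 1.00) by 2 other probes. By a further probe GR iKO stood at 54.2% of Flox on water (adjusted p = 0.00244). The probe with −1.07 on water stood at 75.7% of Flox on DSS (adjusted p = 0.628), with overlapping groups. With normexp background, 65.5% of called probes were higher in Flox and 59.1% in GR iKO, against 46.2% and 49.1%. Same-numbered arrays deviated together (r over 0.1) in 9 of 18 pairs, with r from −0.23 to 0.31. That was a larger share than among differently numbered pairs. Most same-numbered pairs also shared a slide, and same-slide pairs gave 9 of 18 as well. These shares do not settle whether the numbers pair the samples. With the replicate block, 24, 22, 0, 0 and 0 Serpin genes were called in the 5 comparisons.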
